A study of Mus musculus with 2 samples.

Results

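The genes described here encode muscle proteins, many of them known to be made in larger amounts under mechanical load or injury: the ankyrin repeat proteins (Ankrd1, Ankrd2 and Ankrd23), the Xin repeat proteins (Xirp1 and Xirp2), the LIM domain proteins Csrp3, Fhl1 and Fhl2, and the sarcomeric actins Acta1 and Actc1. They were chosen as every probe set of the array that its annotation pairs with 1 of these 10 symbols and no other. This gave 11 probe sets for 9 genes, of 18193 genes on the array, and Xirp2 was not analysed here because no such probe set carries its symbol. Hearts were compared 3 days after surgery in C57BL/6J mice, all male and 10 weeks old. In the infarct group the left anterior descending coronary artery was tied permanently, and in the sham group it was not tied although the mice had the same surgery. RNA from 3 hearts was pooled per group and each pool was measured on 1 GeneChip Mouse Genome array, to find genes that differ early after myocardial infarction. Since each group had 1 array and no replicates, a test was not possible, and every value below compares 1 infarct pool with 1 sham pool. The tissue is named only as heart, so the tied area and the remote muscle were not told apart.

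A muscle cell transmits force through its Z-discs, where titin and actin filaments are anchored, and through the intercalated discs, which join neighbouring cells end to end. Ankyrin repeat proteins of muscle bind the elastic part of titin and can also enter the nucleus, and LIM domain proteins, built around zinc-binding modules, link titin and the Z-disc to signalling. Xin repeat proteins bundle actin at the intercalated disc. Skeletal α-actin (Acta1) is made in fetal and overloaded heart muscle of rodents, while cardiac α-actin (Actc1) dominates in the healthy adult heart. Several of these genes are known targets of serum response factor (SRF), which binds the CArG box, and of TEAD factors, which bind the muscle CAT element with the core CATTCC.

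The promoters of the genes whose differences lie highest, among the middle ones and lowest are shown because they carry these letters. The sequences are from RefSeq (GRCm38.p6) and hold the 250 bases before an annotated start, written 5′ to 3′ on the strand of the gene. Capitals mark a CArG box, CATTCC, or its reverse complement GGAATG. The genes Fhl1 and Fhl2 have 2 annotated starts each, and the window shown is that of the upstream start for Fhl1 and of the downstream start for Fhl2.
Fhl1, chrX:56779433-56779682, plus strand: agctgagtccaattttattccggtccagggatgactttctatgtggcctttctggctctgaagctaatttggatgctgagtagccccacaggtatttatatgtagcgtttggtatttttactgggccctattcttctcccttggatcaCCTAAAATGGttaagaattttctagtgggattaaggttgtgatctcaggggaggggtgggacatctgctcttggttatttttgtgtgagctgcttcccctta
Ankrd1, chr19:36119845-36120094, minus strand: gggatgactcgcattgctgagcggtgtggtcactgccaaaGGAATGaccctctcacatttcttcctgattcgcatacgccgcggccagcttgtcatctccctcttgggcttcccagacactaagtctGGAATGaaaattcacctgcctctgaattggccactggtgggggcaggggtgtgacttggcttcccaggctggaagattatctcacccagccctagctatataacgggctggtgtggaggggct
Acta1, chr8:123894776-123895025, minus strand: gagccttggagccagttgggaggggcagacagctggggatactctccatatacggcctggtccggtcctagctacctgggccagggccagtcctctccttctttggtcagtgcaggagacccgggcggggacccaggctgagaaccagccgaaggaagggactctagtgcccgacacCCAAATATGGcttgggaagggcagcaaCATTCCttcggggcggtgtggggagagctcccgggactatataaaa
Actc1, chr2:114052876-114053125, minus strand: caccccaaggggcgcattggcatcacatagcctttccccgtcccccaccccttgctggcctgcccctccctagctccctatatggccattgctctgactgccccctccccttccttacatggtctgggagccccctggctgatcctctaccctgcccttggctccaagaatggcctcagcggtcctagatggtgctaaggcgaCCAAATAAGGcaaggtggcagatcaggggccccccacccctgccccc
Fhl2, chr1:43163962-43164211, minus strand: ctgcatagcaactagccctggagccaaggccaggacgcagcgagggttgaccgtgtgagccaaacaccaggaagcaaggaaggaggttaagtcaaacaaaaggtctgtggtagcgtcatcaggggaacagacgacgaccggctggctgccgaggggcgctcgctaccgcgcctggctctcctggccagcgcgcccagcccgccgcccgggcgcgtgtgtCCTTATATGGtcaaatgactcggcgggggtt

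Of the 10 genes, 9 had such windows, 13 in all. The gene without a window in the sequences used here was Xirp1, so its promoter was not searched. A CArG box was found in 5 windows of 4 genes (Fhl1, Fhl2, Acta1 and Actc1), against 1.47% of all 32851 windows of the same length. In Acta1 it ends 64 bases before the start, in Actc1 38 bases, in Fhl1 93 bases, and in Fhl2 22 bases (87 in its upstream window, not shown). The core CATTCC, searched on both strands, was found in 3 windows, those of Ankrd1 (in 2 places), Acta1 and Ankrd23, against 12.6% of all windows. The AP-1 letters TGACTCA, also on both strands, were found in Xirp2 alone (4.46% of all windows), and a MEF2 site in Xirp2 and Fhl2 (2.92%). No match overlapped a match to another motif. The CArG box was present in the genes with the highest and the lowest difference alike. A match describes letters in a window, and whether any factor binds there was not measured.

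The infarct pool had higher values than the sham pool for 8 of the 9 genes, with a median log2 difference (infarct minus sham) of 0.49. Over all 11968 genes compared, those whose brightest probe set reached the median of the array in at least 1 pool, the median was 0 and 49.5% lay above 0. None of the 9 genes reached a 2-fold difference in either direction, which 3.73% of all genes did upwards and 1.26% downwards. Among probe sets of the same gene the log2 difference varied around the mean of the gene with a pooled SD of 0.23 (5193 genes). As deposited, 6 of the 9 genes were higher by more than 2 of these SDs (0.46), against 14.4% of all genes. This count was 4 with the poly-A controls as zero (12.3% of all genes) and 7 with the hybridisation controls as zero (35.5%). With the housekeeping genes as zero, 1 of the 9 genes (Fhl1, at 0.64) was higher by more than 0.46, against 6.68% of all genes. Fhl2 (-0.54) was then lower by more than 0.46, as were 4035 of the 11968 genes compared. The SD measures how probes disagree, and the spread between mice is unknown. The largest difference by the brightest probe set was that of Fhl1 (1.94-fold higher), and Fhl2 alone was lower (1.17-fold). These values depend on where the zero of the scale lies, as described further on: Csrp3 and Actc1 lay below 0 and Fhl2 above 0 under other centrings.

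**Figure D1:**
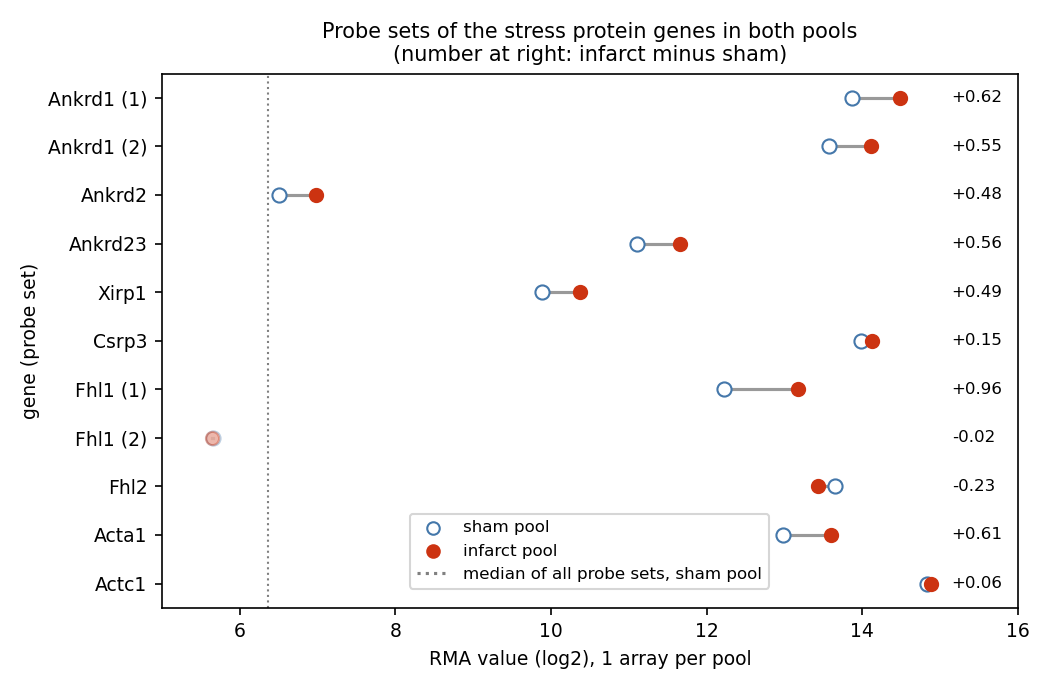
Log2 RMA values (horizontal axis) of each probe set of the 9 genes (vertical axis) as open circles (sham pool) or red circles (infarct pool), 1 array each, with the difference at the right; a probe set dimmer than the median of both arrays is pale. The 6 genes Fhl1, Ankrd1, Acta1, Ankrd23, Xirp1 and Ankrd2 were 0.48 to 0.96 higher in the infarct pool, while Csrp3 (0.15), Actc1 (0.06) and Fhl2 (-0.23) changed sign under some centrings.

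The ankyrin repeat genes had similar differences, from 0.48 to 0.62. Ankrd1 encodes the cardiac ankyrin repeat protein, a partner of titin and a nuclear cofactor. Its brighter probe set had a log2 value of 13.87 (sham) and 14.48 (infarct), a difference of 0.62 (1.53-fold). The other probe set had values of 13.57 and 14.11, a difference of 0.55, so that both gave the same direction and nearly the same size. Among all probe sets the brighter one ranked 91 (sham) and 14 (infarct). Ankrd23, the diabetes-related ankyrin repeat protein, had values of 11.10 (sham) and 11.66 (infarct), a difference of 0.56 (1.47-fold). Ankrd2, best known from slow skeletal muscle, had values of only 6.50 and 6.98, a difference of 0.48 (1.39-fold). Its values lay little above the array medians of 6.36 (sham) and 6.35 (infarct), so that its difference rests on a weak signal, and Ankrd2 dropped out when the 75th percentile served as the filter. The 3 ankyrin repeat genes thus shared a direction and spanned 0.14, less than the SD between probe sets.

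Xirp1 encodes Xin, which binds actin and β-catenin at the intercalated disc. Its single probe set had a log2 value of 9.88 (sham) and 10.38 (infarct), a difference of 0.49 (1.41-fold). It lay within the range of the ankyrin repeat genes.

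The LIM domain genes differed most among themselves, from -0.23 to 0.96. Fhl1, which encodes a protein of stacked LIM domains that binds titin, had values of 12.22 (sham) and 13.18 (infarct), a difference of 0.96, higher than that of 95.9% of all genes compared. A second probe set of Fhl1 lay under both array medians, with values of 5.66 and 5.64 (difference -0.015), and averaging both would give 0.47 for the gene. Which transcripts of Fhl1 each probe set detects is not given in the sources used here. Csrp3, the muscle LIM protein of the Z-disc, had values of 13.99 and 14.13, a difference of 0.15 that was smaller than the SD between probe sets and lay at -0.17 with the housekeeping genes as zero. Fhl2, a relative of Fhl1 that also binds titin, had values of 13.66 (sham) and 13.43 (infarct), a difference of -0.23, about equal to that SD and at 0.092 with the hybridisation controls as zero. Fhl1 and Fhl2 were therefore 1.18 apart in their difference, a contrast within the arrays that no shift of an array as a whole changes.

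Of the sarcomeric actins, Acta1 differed more than Actc1. Acta1 had values of 12.98 (sham) and 13.60 (infarct), a difference of 0.61 (1.53-fold). Actc1 had values of 14.83 and 14.89, a difference of 0.06 that lay at -0.26 with the housekeeping genes as zero and at -0.0022 with the poly-A controls as zero. Actc1 was the brightest of all probe sets in the infarct pool and ranked 4 in the sham pool, where the highest value was 14.90. It thus lay at the upper end of the scale, and saturation of its probes was not tested. How far probes of one sarcomeric actin also take up the transcript of the other was not tested.

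**Figure D2:**
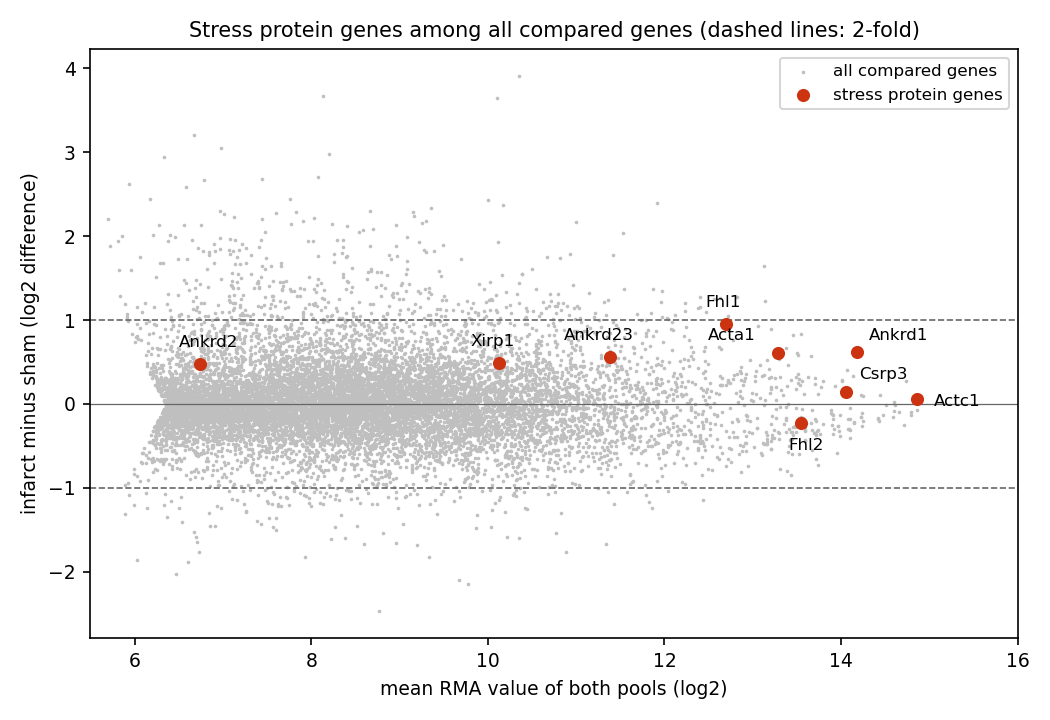
Log2 difference (infarct minus sham, vertical axis) against the mean log2 value of both pools (horizontal axis) for 11968 compared genes in grey and the 9 stress protein genes in red, with dashed lines at 2-fold. Fhl1 (0.96) lay just under the upper line, and Ankrd1 (0.62) and Acta1 (0.61) lay towards the upper edge of the brightest genes.

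Several of the 9 genes are among the brightest of the array, where differences of all genes were small. Of 189 genes with a mean log2 value of at least 13, a bound chosen after the values were seen, 2 were at least 2-fold higher and 0 were 2-fold lower, and their median difference was -0.16. Ankrd1, Acta1, Csrp3, Fhl2 and Actc1 are 5 of these genes. Only 9 of the 189 genes, Ankrd1 included, had a difference at least as high as that of Ankrd1, and Acta1 came next. Nppb, which encodes the natriuretic peptide BNP, had the highest difference of them (1.64).

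In the order of the differences by the brightest probe set, Fhl1 came first and was followed by Ankrd1, Acta1, Ankrd23, Xirp1, Ankrd2, Csrp3, Actc1 and Fhl2. When all probe sets of each gene were averaged, Fhl1 lost the first place: at 0.47 it lay below Acta1 (0.61), Ankrd1 (0.58), Ankrd23 (0.56), Xirp1 (0.49) and Ankrd2 (0.48). The gap between Fhl1 and Ankrd1 was 0.34 and that between Ankrd2 and Csrp3 was 0.33, each little more than the SD of such a gap between probe sets (0.32). The gap between Actc1 and Fhl2 was 0.28. All other neighbours were at most 0.091 apart, so that the order of Ankrd1, Acta1, Ankrd23, Xirp1 and Ankrd2, which together spanned 0.14, was not resolved. The genes with a mean value within 0.5 of that of Fhl1 (215 genes) whose difference was nearest to it were Actg1 (0.93), Fabp5 (0.92) and Tgm2 (1.05). For Fhl2 (145 genes) they were Atp5l (-0.22), Myl7 (-0.22) and Ndufb7 (-0.23). This likeness rests on 1 difference per gene over 2 arrays.

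The zero of the scale was not settled by the controls. Against the deposited values, 8 housekeeping genes lay 0.31 higher in the infarct pool on average (from -0.44 for Sdha to 1.12 for Gusb), 18 probe sets of the hybridisation controls were 0.32 lower, and 24 of the poly-A controls were 0.057 higher. After centring on the housekeeping genes, 6 of the 9 genes lay above 0, with Fhl1 at 0.64, Ankrd1 and Acta1 at 0.30, Ankrd23 at 0.25, Xirp1 at 0.18 and Ankrd2 at 0.16. After centring on the hybridisation controls all 9 lay above 0 and Fhl1 was more than 2-fold higher (1.27). Over all genes, 446 were at least 2-fold higher and 151 lower as deposited, 219 and 506 after the former centring, and 962 and 40 after the latter, which moved the median of all genes by -0.31 and 0.32.

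Most cardiomyocyte markers had lower values in the infarct pool, in contrast to the stress protein genes. Of 15 markers, all far above the array median, 13 lay below 0. Cox6a2, a respiratory subunit of muscle, was lowest (-0.41) and Tnnc1, cardiac troponin C, highest (0.11, below 0 with the housekeeping genes as zero). By the brightest probe set, none differed by 2-fold or by more than 0.46 as deposited. Other bright probe sets of these markers differed more, from -0.82 (Atp2a2) to 0.95 (Tpm1), 2 genes named after their values were seen. With the housekeeping genes as zero, 7 of the 15 markers were lower by more than 0.46, against 4035 of the 11968 genes compared. Their median was -0.13 (-0.44 with the housekeeping genes and 0.19 with the hybridisation controls as zero), and their summed signal was 18.28 (sham) and 18.14 (infarct) (log2). In bulk tissue, fewer cells of a type and less RNA per cell cannot be told apart. Set against the median of these markers, Fhl1 was 1.08 higher, Ankrd1 and Acta1 0.74, Ankrd23 0.69, Xirp1 0.62 and Ankrd2 0.61. Csrp3 was then 0.27 and Actc1 0.18 higher, and Fhl2 0.098 lower. This centring was chosen after the data were seen, and it moved the median of all genes by 0.13 and gave 615 genes at least 2-fold higher and 88 lower.

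**Figure D3:**
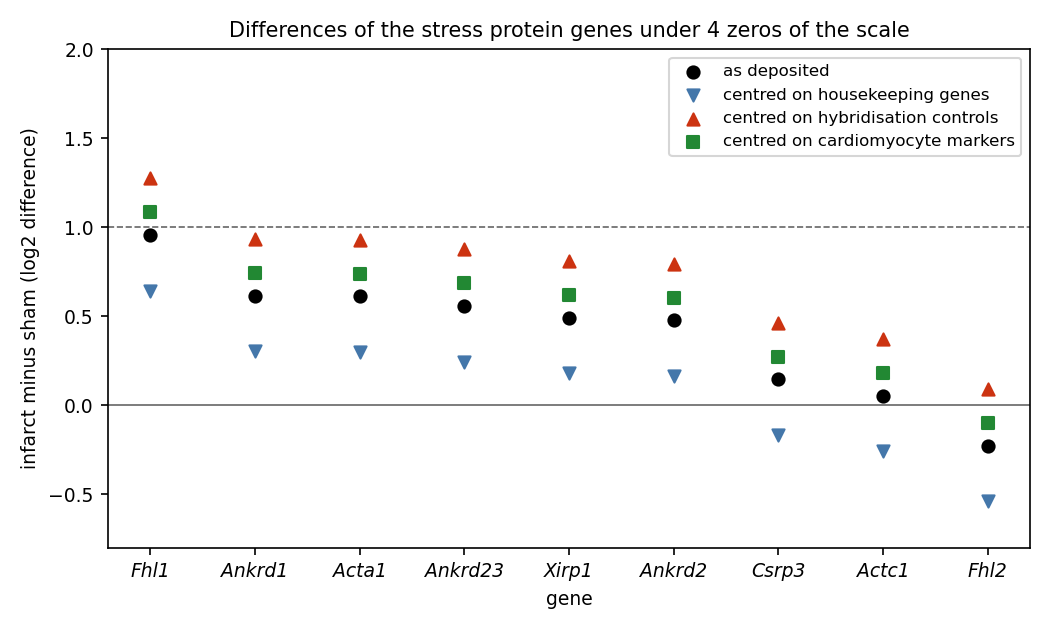
Log2 differences (infarct minus sham, vertical axis) of the 9 genes (horizontal axis) as deposited (black circles) and with the zero set by the housekeeping genes, the hybridisation controls or the cardiomyocyte markers; the dashed line marks 2-fold. Fhl1, Ankrd1, Acta1, Ankrd23, Xirp1 and Ankrd2 lay above 0 under all 4 zeros, whereas Csrp3 and Actc1 lay below it with the housekeeping genes as zero and Fhl2 lay above it only with the hybridisation controls as zero.

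Skeletal muscle of the chest wall also expresses Acta1, Ankrd2, Csrp3 and Fhl1, so its markers were examined. Of 16 markers, 7 lay under both array medians, among them the fast myosin genes Myh1 (4.93 (sham) and 4.71 (infarct)) and Myh4 (4.01 and 3.72), named after their values were seen. The summed signal of the 16 markers was 10.77 (sham) and 10.79 (infarct) on the log2 scale. Of the 9 bright enough, the fast troponin genes Tnnt3 (1.59, dim in the sham pool) and Tnni2 (1.16, with bright probe sets from 0.44 to 1.16) were at least 2-fold higher, and the slow troponin gene Tnnt1 was lowest (-0.72). With the housekeeping genes as zero Tnni2 lay at 0.85, within 2-fold, and Tnnt1 was at least 2-fold lower (-1.03). Their median was 0.018, and it lay below 0 under quantile normalization (-0.023) and when the zero was set by housekeeping genes (-0.29) or poly-A controls (-0.039).

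All 10 macrophage markers lay above 0 (49.5% of all genes did), and 5 were at least 2-fold higher (3.73% of all genes). These 5 were Msr1 (1.95, with 3 bright probe sets from 1.06 to 1.95), Cd68 (1.24), Itgam (1.22), Ccr2 (1.16, with 4 bright probe sets from 0.35 to 1.16) and Fcgr1 (1.12, with bright probe sets from 0.93 to 1.12). With the housekeeping genes as zero, 1 of the 5, Msr1 (1.64 by its brightest probe set), stayed past 2-fold. The median of the list was then 0.54 instead of 0.85. Csf1r was lowest (0.23, below 0 with the housekeeping genes as zero). Their summed signal was 13.90 (sham) and 14.48 (infarct) (log2). The part of such cells in the differences of Fhl1, Acta1 and the ankyrin repeat genes was not tested.

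Several relatives of the LIM and actin genes that are not restricted to heart muscle had larger differences than Csrp3 and Actc1. Csrp1 (0.93) and Csrp2 (0.91), the paralogs of Csrp3 known from smooth muscle, were both nearly 2-fold higher, while Fhl3 lay under both array medians; these 3 were named after their values were seen. Of the 20 other LIM domain genes bright enough, Csrp1 and Csrp2 included, 14 lay above 0 (49.5% of all genes did). More than 0.46 higher were 8 of the 20 (40%), against 14.4% of all genes. This count was 6 with the housekeeping genes as zero (6.68% of all genes) and 13 with the hybridisation controls as zero (35.5%). The median of the 20 genes was 0.35, which left 0.036 with the housekeeping genes as zero. By the brightest probe set, Pdlim7, which encodes a PDZ and LIM protein of actin filaments, was the highest and the only one past 2-fold. It lay at 1.09, and at 0.78 with the housekeeping genes as zero, although its 3 probe sets ran from 0.25 to 1.09. The 7 probe sets of Pdlim5, a gene named after its values were seen, ran from 0.33 to 1.48. Ablim1 was the lowest (-0.51). Of the other actins, cytoplasmic Actg1 was highest (0.93) and enteric Actg2 lowest (0.11, below 0 with the housekeeping genes as zero). The median of these 4 genes was 0.68 (0.37 with the housekeeping genes and 1.00 with the hybridisation controls as zero). Actb (0.82) also had a probe set at -0.62, so that its direction depended on the probe set, as noted after its values were seen.

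Lists of partner proteins in the Z-disc and the intercalated disc had medians below 0, of the opposite sign with the hybridisation controls as zero. Of 20 genes for titin and Z-disc partners, 14 lay below 0, with a median of -0.15 (-0.47 with the housekeeping genes and 0.16 with the hybridisation controls as zero). Synpo2l, which encodes a Z-disc protein, was the highest (0.87), and Tcap, the titin cap protein, the lowest (-0.85). Des, the intermediate filament of muscle (0.51), and Flnc, the filamin of the Z-disc and a binding partner of Xin (0.70), were the other 2 genes more than 0.46 higher. Both were named after their values were seen. This made 3 of the 20 genes (15%), against 14.4% of all genes. With the housekeeping genes as zero it was 1 gene (5%, against 6.68%), with Flnc at 0.39 and Des at 0.20. As deposited, 5 of the 20 genes were lower by more than 0.46, against 1249 of the 11968 genes compared. With the housekeeping genes as zero these counts were 11 and 4035. Of 16 intercalated disc partners, 7 lay above 0 and 9 below, with a median of -0.047 (-0.36 with the housekeeping genes, 0.27 with the hybridisation controls and 0.081 with the cardiomyocyte markers as zero). Enah, an actin-elongating protein, was highest (0.97, with bright probe sets from 0.071 to 1.28), and the desmosomal cadherin Dsc2 lowest (-0.70).

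Genes associated with cardiac hypertrophy had larger differences than most of the 9 genes. This list, like the others, was chosen with earlier results of these data known. All 9 listed genes lay above 0 (49.5% of all genes did), with a median of 0.95 (0.64 with the housekeeping genes as zero). Of them, 4 passed 2-fold (3.73% of all genes): Sprr1a (3.91), Nppb (1.64), the calcineurin regulator gene Rcan1 (1.55) and the deubiquitinase gene Uchl1 (1.44). Nppa, the atrial natriuretic peptide, was lowest (0.27, below 0 with the housekeeping genes as zero), at values of 14.59 (sham) and 14.87 (infarct) that lie near the top of the scale.

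Transcripts of transcriptional regulators lay on both sides of 0. Their list held regulators known for the CArG box and the muscle CAT element, and others such as Mef2a. Of 17 regulators bright enough, 1 was at least 2-fold higher, Vgll3 (1.36), which the study selected partly from these same arrays, and the lowest was Mef2a (-0.42). Srf differed by -0.092 and Tead1 by 0.16, and both, picked after their values were seen, had the opposite sign with the hybridisation controls (Srf) or the housekeeping genes (Tead1) as zero. Their median was -0.071, it lay at -0.38 with the housekeeping genes as zero, and it was positive with the hybridisation controls (0.25) or the cardiomyocyte markers (0.057) as zero.

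**Figure D4:**
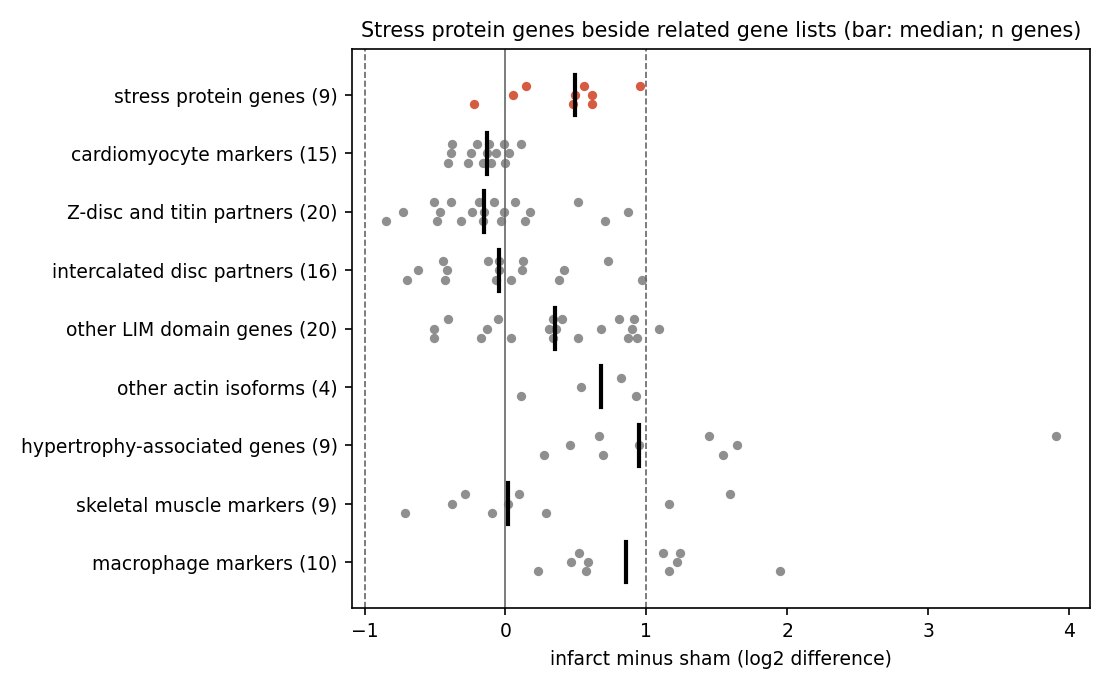
Log2 differences (infarct minus sham, horizontal axis) of the 9 stress protein genes (red) and of the genes of 8 related or marker lists (grey), 1 point per compared gene, with a bar at each median and the number of genes in brackets; dashed lines mark 2-fold. The median of the stress protein genes (0.49) lay below those of the other actins (0.68), the macrophage markers (0.85) and the hypertrophy list (0.95). It lay above those of the other lists shown, from the Z-disc list (-0.15) and the cardiomyocyte markers (-0.13) to the other LIM domain genes (0.35). The medians of the Z-disc list, the intercalated disc list and the cardiomyocyte markers turned positive with the hybridisation controls as zero.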

How the data were processed

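Hearts were frozen, and the authors prepared total RNA with ISOGEN followed by an RNeasy kit. The deposited values are log2 RMA values per probe set: the authors corrected the background, normalized both arrays against each other and summarised the probes. The version of RMA is not given in the sources used here. RMA forces like distributions on the arrays, so a change in total mRNA cannot be seen.

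Of 45101 probe sets, 34945 paired with 1 gene symbol, 932 with several (0 of them with any of these genes) and 9160 with none, and 64 were controls. Annotations of all 9 genes matched RefSeq by Entrez identifier. The probe set of highest mean stood for a gene. The gene was compared if this probe set was at or above the median of the non-control probe sets in at least 1 pool. All 9 genes were. The threshold was a log2 difference of 1. Related lists held 23 Z-disc, 23 LIM, 16 intercalated disc, 4 actin, 18 regulator and 9 hypertrophy genes, and marker lists are described with their results. The genes, lists and tests were chosen with earlier results of these data known. Named were all 9 genes and, of each list, genes past 2-fold, the highest and the lowest; others are marked. The counting was tried on simulated data with differences larger than the threshold put in and noise the size of the SD between probe sets. That simulation held no spread between mice, so it does not show how precise the counts are. With 1 array per group, the number of arrays limits the precision and no spread between mice is known.

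Alternatives were median centring, quantile normalization, loess (span 0.4), centring on housekeeping genes or controls, other choices of probe set, other filters (none, 75th percentile) and a threshold of 1.4. Python 3.11.15, numpy 2.4.6, pandas 2.3.3, statsmodels 0.14.6 and matplotlib 3.10.9 were used.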

Additional observations from a re-analysis of the deposited data

How the results depend on the processing

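The genes Fhl1, Ankrd1, Acta1, Ankrd23, Xirp1 and Ankrd2 stayed above 0 under every scaling and choice of probe set in which they were compared. Fhl1 was left out when the probe set of smallest difference stood for a gene, because that probe set (-0.015) lay under both array medians. The median of all 9 genes was 0.18 with the housekeeping genes as zero and 0.81 with the hybridisation controls as zero. The number of genes at least 2-fold higher was 1 (Fhl1) with the hybridisation controls or the cardiomyocyte markers as zero, and 0 elsewhere; these centrings also gave 19 and 12 genes of the related lists at 2-fold or more, against 6 as deposited. Signs turned for Csrp3 (-0.17) and Actc1 (-0.26) on the housekeeping genes, for Actc1 (-0.0022) on the poly-A controls and for Fhl2 (0.092) on the hybridisation controls. Medians of lists turned as well. On the housekeeping genes these were skeletal muscle (-0.29), smooth muscle and myofibroblast (-0.018) and fibroblast markers (-0.11). On the hybridisation controls they were Z-disc (0.16), intercalated disc (0.27), regulators (0.25), cardiomyocyte (0.19) and atrial markers (0.051). On the cardiomyocyte markers they were intercalated disc (0.081) and regulators (0.057). Skeletal muscle markers turned under quantile normalization (-0.023) and on the poly-A controls (-0.039). Each centring subtracts 1 number from every difference, which by itself makes these changes, and which zero is right was not tested. No paired analysis was possible because each group had 1 array, and no sample could be left out.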

Other observations

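Markers of other cells of the heart went in both directions. Of 8 fibroblast markers, 5 lay above 0 and the surface glycoprotein gene Thy1 was at least 2-fold higher (1.09, but 0.77 with the housekeeping genes as zero), while Dcn, which encodes the proteoglycan decorin, was lowest (-0.34); their median was 0.20, and -0.11 with the housekeeping genes as zero. Of 7 smooth muscle and myofibroblast markers (median 0.30, and -0.018 after that centring), the matrix genes Postn (1.28) and Cthrc1 (1.20) were at least 2-fold higher as deposited but not after that centring (0.96 and 0.89), while Myh11, the myosin of smooth muscle, was lowest (-0.77, and -1.09 after that centring). All 4 atrial markers lay below 0, from Sln (-0.33) to Myl4 (-0.010), and their median of -0.27 lay at -0.58 with the housekeeping genes as zero and turned to 0.051 with the hybridisation controls as zero.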
